A study of Mus musculus with 5 samples.

Results

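SREBP target genes are the genes of sterol and fatty acid synthesis, together with the regulators that govern them, and here they were followed in macrophages that had shared medium with mammary cancer cells. The set was given as 32 gene symbols, of which 18 belong to the sterol arm, 6 to the regulators, and 8 to the fatty acid arm. All 32 were found among the 17058 genes listed in at least 1 library, and all 32 were among the 12576 genes that passed the filter on low counts. The cells were bone marrow–derived macrophages (BMDMs) of Balb/c mice, grown with the growth factor M-CSF and cocultured for 48 hours with 4T1 cells, a mouse mammary carcinoma line. In the first group (2 libraries) the 4T1 cells were WT, and in the second (3 libraries) they were Adam17-/-. ADAM17 is a protease that sheds growth factors and receptors from the cell surface, and the question was how its loss in the cancer cells changes the macrophages. A porous membrane separated the cell types, so the gene was deleted in the 4T1 cells and was intact in the macrophages that were sequenced. The Adam17-/- cells were made by CRISPR/Cas9, and the labels of the 3 libraries carry a single knock-out designation, so loss of Adam17 and any other trait of that line cannot be told apart.

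Each library was a poly(A)-selected RNA-Seq library of total RNA, with 14658694 to 20788373 counts, at which 3 counts of a gene equal 0.157 to 0.197 CPM (counts scaled by the normalized size of the library). Values below are TMM-normalized CPM unless a sentence names FPKM, the deposited level per length of transcript. The labels call the samples repeats and do not say whether they came from separate cultures or mice. The p-values thus measure the spread between these samples, which may be technical. By a chi-square of the counts per degree of freedom, the WT libraries differed more from each other (25.7) than the Adam17-/- libraries did (5.22 to 6.32). For each gene, the fit estimated 1 spread for both groups. Because RNA was measured in bulk, fewer cells of a type and less RNA per cell cannot be told apart. Macrophage markers were expressed in every library, and Adam17 itself stood at 197.5 and 199.6 CPM in the WT cocultures and at 151.6, 163.8, and 160.5 CPM in the Adam17-/- cocultures, which does not check the labels because the macrophages carried the gene.

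Sterol regulatory element–binding proteins (SREBPs) are transcription factors made as precursors in the membrane of the endoplasmic reticulum. SCAP carries them to the Golgi when membrane sterol is low, INSIG proteins hold SCAP back when sterol is high, and Golgi proteases release the part that enters the nucleus. SREBP-2, from Srebf2, mainly drives cholesterol synthesis and uptake, and SREBP-1, from Srebf1, mainly drives fatty acid synthesis. In macrophages this program supplies membrane and is tied to the handling of lipid taken up from the surroundings.

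In the libraries of macrophages cocultured with Adam17-/- 4T1 cells, RNA of SREBP target genes was lower along both arms and among their regulators. Of the 32 genes, 24 fell and 0 rose at an adjusted p of 0.05 or less (edgeR quasi-likelihood test, Benjamini-Hochberg adjustment over all 12576 genes), with no limit on the fold change. The count of members that rose was also 0 at an unadjusted p under 0.05 and with DESeq2, as it was in each lipid list below with 0 genes higher. Over all genes tested, 16.8% were called lower and 14.9% higher. The median log2 fold change of the 32 genes was -0.49, against 0.01 over all genes, and 29 of the 32 values were below zero, against 49.0% of all genes. The fall was deepest for Fasn, which makes palmitate, at -1.52, for Sqle at -1.21, Fads2 at -1.13, Cyp51 at -1.04, and Hsd17b7 at -1.003. These 5 were the members beyond a log2 fold change of 1. In the same libraries 10 macrophage markers had a median log2 fold change of -0.55 and 10 neutrophil granule markers one of 1.69, and the part of either in the fall was not tested.

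In each of the 24 genes that fell, the 3 Adam17-/- libraries all lay under both WT libraries, and in the other 8 the groups overlapped. Over all genes tested, 29.7% lay wholly under and 28.4% wholly over the WT libraries. The summed level of the 32 genes was 2208 and 2133 CPM in WT replicates 1 and 2 and 1485, 1463, and 1587 CPM in Adam17-/- replicates 1, 2, and 3. The sum thus fell outside the range of the other group in every library. It was 709.9 ± 14.1 (SD, n = 2) against 475.4 ± 12.1 CPM (SD, n = 3) for the sterol arm, 665.4 ± 66.4 against 420.7 ± 16.8 CPM for the regulators, and 794.9 ± 0.500 against 615.6 ± 38.2 CPM for the fatty acid arm. Gene by gene, WT replicate 1 was the higher WT library in 19 of the genes and WT replicate 2 in 13. The largest ratio of 1 gene between the WT libraries was 2.83 and the largest among the Adam17-/- libraries 1.45, both for Scd1.

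**Figure D1:**
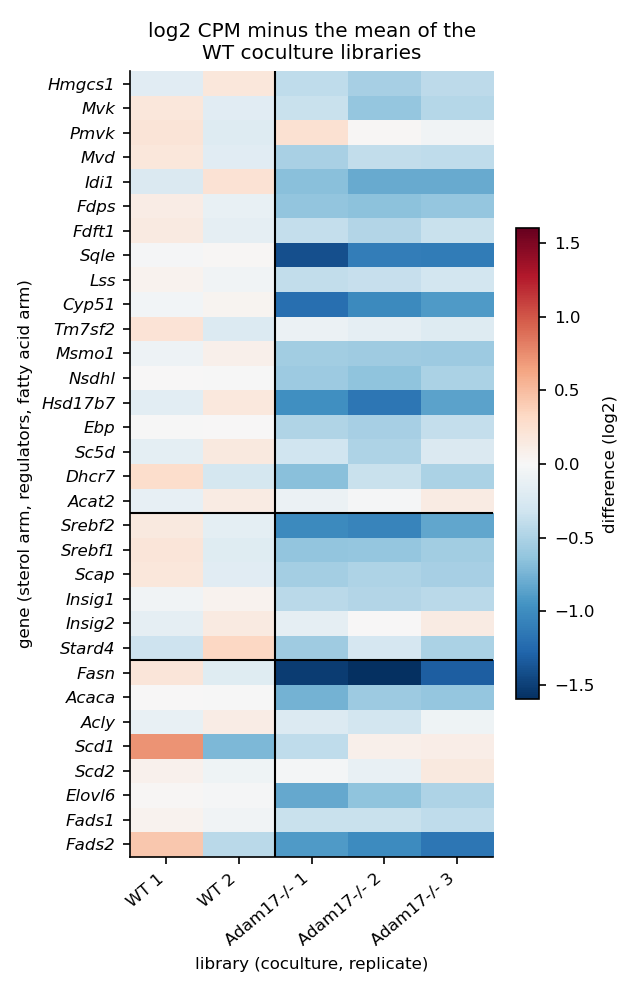
Level of each of the 32 SREBP target genes in each library, as log2 CPM minus the mean of the WT coculture libraries; rows are genes (sterol arm, regulators, and fatty acid arm from top to bottom), columns are libraries, and blue is lower. The 3 Adam17-/- columns are blue in most rows, with a median over the genes of -0.54, -0.51, and -0.48 in replicates 1, 2, and 3, and Scd1 and Fads2 show the widest gap between the WT replicates.

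**Figure D2:**
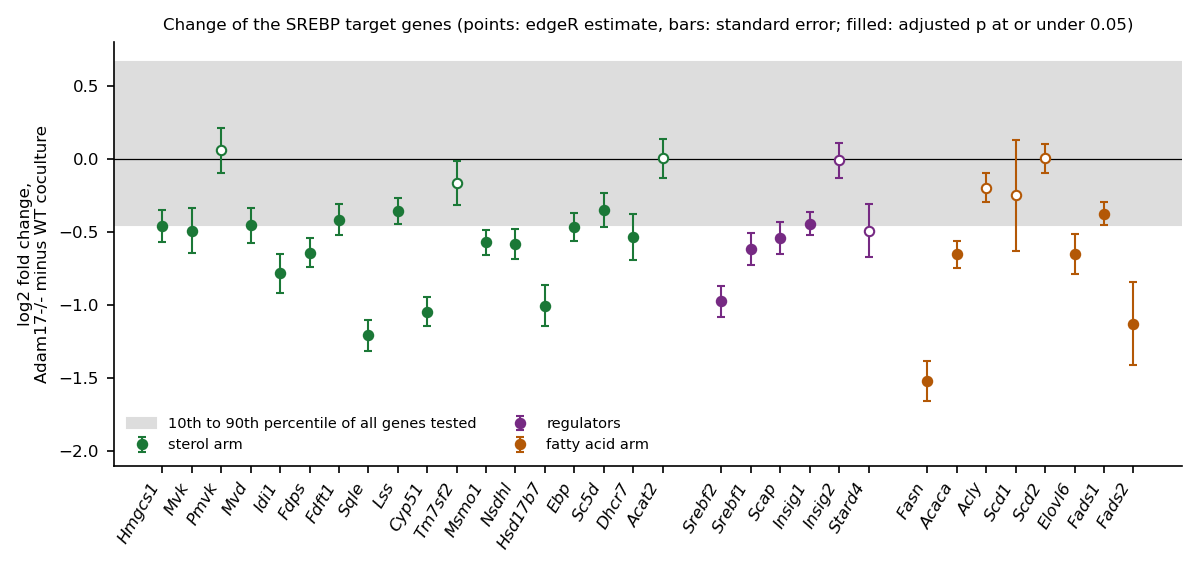
Log2 fold change (Adam17-/- minus WT coculture) of each gene with its standard error; filled points have an adjusted p of 0.05 or less (edgeR), open points do not, colors mark the 3 groups of genes, and the gray band runs from the 10th to the 90th percentile of all genes tested (-0.45 to 0.67). The 24 filled points lie below zero, from -1.52 for Fasn to -0.35 for Sc5d and Lss. The open points include Acat2, Insig2, and Scd2 close to zero and Pmvk at 0.06.

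The promoters of the genes were read for the letters that SREBP and its partner are known to bind. SREBPs bind sterol regulatory elements, of which TCACNCCAC was searched as a strict core and TCACNCNA as a looser core that holds every strict match, and they act together with NF-Y, which binds CCAAT boxes. SREBP-1 can also bind the E-box CACGTG. RefSeq promoters (GRCm38.p6, 250 bases before to 50 after the start) were at hand for 25 of the 32 genes, and both strands were read. The looser core stood in 6 of the 25 (24.0%), namely Hmgcs1, Msmo1, Nsdhl, Srebf2, Srebf1, and Fasn, against 11.8% of the 10063 tested genes with a promoter in the table, and the strict core in 1, that of Hmgcs1 (4.0% against 1.36%). CCAAT stood in 20 of the 25 (80.0% against 43.1%), and CACGTG in 5 (20% against 11.7%), namely Hsd17b7, Sc5d, Dhcr7, Scap, and Insig1. A gene was counted if any of its promoters held the letters, and per promoter, over all 32851 of the table, the shares were 11.0%, 1.24%, 37.4%, and 7.15%. A letter match is no evidence of binding. The 200 bases before the start that the promoter table uses for 6 of the genes that fell are printed 5′ to 3′ on the strand of the gene, 4 for the core element and 2 for the E-box, with each match to the element, the E-box, and CCAAT in capitals, the last of which reads ATTGG where it lies on the other strand. They lie at chr13:119690151-119690350 (plus strand) for Hmgcs1, chr8:64733579-64733778 (minus) for Msmo1, chr15:82147069-82147268 (plus) for Srebf2, chr11:120824548-120824747 (minus) for Fasn, chr1:169969206-169969405 (minus) for Hsd17b7, and chr5:28071212-28071411 (plus) for Insig1. The RefSeq gene span reaches beyond that start for Fasn, whose stretch lies within the span (it ends at 120825166), and for Hsd17b7, whose stretch overlaps the span (it ends at 169969242), while the other 4 stretches border the span without overlap.
Hmgcs1: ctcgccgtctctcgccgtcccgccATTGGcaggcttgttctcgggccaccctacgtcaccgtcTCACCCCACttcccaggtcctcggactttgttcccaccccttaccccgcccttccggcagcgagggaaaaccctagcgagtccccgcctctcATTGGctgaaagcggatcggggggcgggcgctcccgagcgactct
Msmo1: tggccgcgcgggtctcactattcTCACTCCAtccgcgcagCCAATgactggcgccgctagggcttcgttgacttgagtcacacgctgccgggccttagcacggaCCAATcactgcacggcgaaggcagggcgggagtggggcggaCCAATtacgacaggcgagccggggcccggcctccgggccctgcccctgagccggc
Srebf2: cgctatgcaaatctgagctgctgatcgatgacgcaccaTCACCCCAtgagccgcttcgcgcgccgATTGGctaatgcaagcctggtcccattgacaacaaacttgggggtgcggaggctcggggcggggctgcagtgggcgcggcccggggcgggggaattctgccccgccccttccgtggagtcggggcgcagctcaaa
Fasn: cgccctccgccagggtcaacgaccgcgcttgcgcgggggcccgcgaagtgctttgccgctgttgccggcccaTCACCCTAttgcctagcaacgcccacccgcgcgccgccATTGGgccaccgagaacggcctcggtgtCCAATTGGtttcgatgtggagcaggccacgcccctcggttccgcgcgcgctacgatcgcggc
Hsd17b7: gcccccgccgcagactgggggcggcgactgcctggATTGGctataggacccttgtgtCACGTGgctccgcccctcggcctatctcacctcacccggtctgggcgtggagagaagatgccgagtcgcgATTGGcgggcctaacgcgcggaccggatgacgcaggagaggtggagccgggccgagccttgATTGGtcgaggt
Insig1: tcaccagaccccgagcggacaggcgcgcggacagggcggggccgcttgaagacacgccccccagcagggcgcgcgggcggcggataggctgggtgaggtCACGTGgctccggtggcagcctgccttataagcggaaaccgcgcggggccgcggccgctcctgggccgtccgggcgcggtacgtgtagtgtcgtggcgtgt
Of the 20 genes with a promoter in the table that fell, 16 had CCAAT in the full window, as did 4 of the 5 that did not fall.

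The sterol arm begins with the mevalonate pathway, which builds isoprenoid units from acetyl-CoA, and 5 of the 6 genes that follow Acat2 up to farnesyl pyrophosphate fell. Acat2, the thiolase that joins acetyl-CoA units, had counts that were not whole and stood at 12.2 and 14.7 CPM in WT replicates 1 and 2 and at 12.6, 13.2, and 14.7 CPM in Adam17-/- replicates 1, 2, and 3. Its groups overlapped, and its log2 fold change was 0.01 (adjusted p = 0.979). Hmgcs1, which makes HMG-CoA, stood at 69.6 and 88.8 CPM against 59.3, 54.5, and 58.7 CPM. Every Adam17-/- library was lower, a fall of 27.3% (log2 fold change -0.46, standard error 0.110, adjusted p = 0.0127). Mvk, the kinase that phosphorylates mevalonate, went from 12.8 and 9.90 CPM to 8.76, 7.30, and 8.15 CPM (-0.49, standard error 0.153, adjusted p = 0.0358). Pmvk, which adds the next phosphate, overlapped between the groups at 15.8 and 11.7 CPM against 16.1, 13.8, and 13.1 CPM (0.06, adjusted p = 0.784). Mvd, which then removes a carboxyl group to give isopentenyl pyrophosphate, fell from 38.9 and 30.3 CPM to 23.9, 26.2, and 25.8 CPM (-0.45, standard error 0.119, adjusted p = 0.0188). Pmvk thus did not pass while the steps on either side of it did, and the difference between these genes was not tested. Its transcript NM_026784 was estimated to hold 87.7% and 94.2% of the gene in the WT libraries. In the Adam17-/- libraries it held 77.0%, 57.2%, and 66.3%, while the CPM of each Pmvk transcript overlapped between the groups.

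Idi1 and Fdps, which turn isopentenyl pyrophosphate into its isomer and into farnesyl pyrophosphate, fell as well. Idi1 stood at 40.7 and 56.3 CPM in the WT libraries and at 29.99, 27.4, and 27.2 CPM in the Adam17-/- libraries. It fell by 41.8% (log2 fold change -0.78, standard error 0.133, adjusted p = 0.00291), with the Adam17-/- libraries close together and the WT libraries apart. Fdps fell from 40.2 and 34.3 CPM to 24.0, 23.5, and 24.2 CPM (-0.64, standard error 0.1001, adjusted p = 0.00192). Farnesyl pyrophosphate also feeds protein prenylation and the chains of ubiquinone and dolichol, and genes of these branches were read as well. Of 15 isoprenoid branch genes, 2 were lower and 0 higher, near the 16.8% of all genes that were lower, and their median was -0.10 (log2 fold change). Among them was Zmpste24, a protease of prenylated proteins (-0.27, adjusted p = 0.0296). Its call did not hold when any Adam17-/- library was left out.

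**Figure D3:**
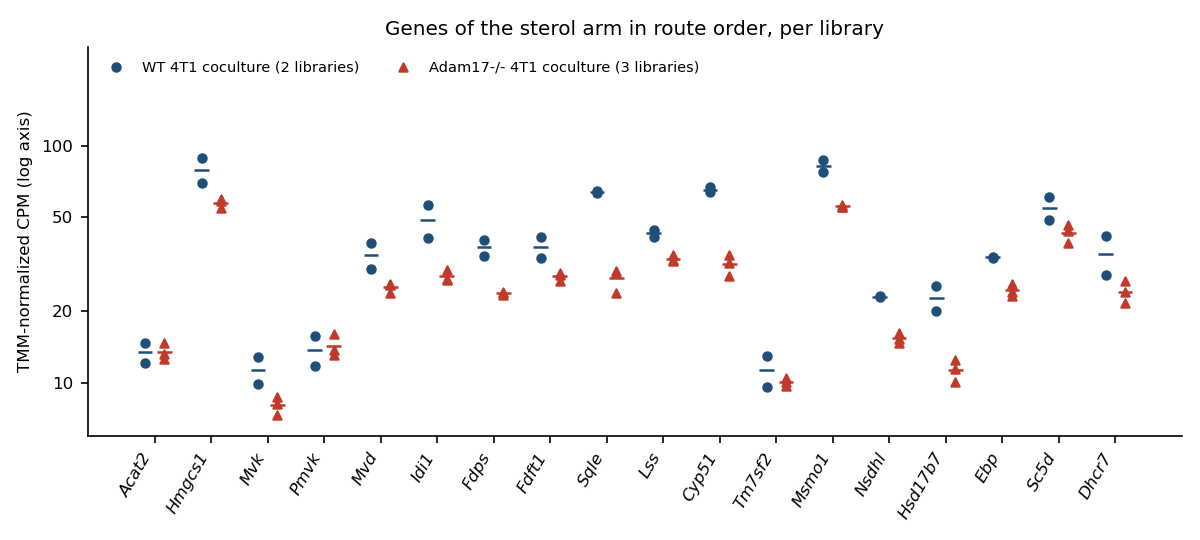
TMM-normalized CPM (log axis) of the 18 genes of the sterol arm in route order, one point per library (circles, 2 WT cocultures; triangles, 3 Adam17-/- cocultures) with bars at the group means. Triangles lie under both circles except at Acat2, Pmvk, and Tm7sf2, and the widest gaps are at Sqle, Cyp51, and Hsd17b7.

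From farnesyl pyrophosphate on, the route makes sterols only, and 10 of its 11 genes in the set fell. Fdft1, squalene synthase, fell from 41.2 and 33.7 CPM to 28.5, 26.8, and 29.0 CPM (-0.41, standard error 0.108, adjusted p = 0.0180), with counts that were not whole. Sqle (chr15:59315092-59331193), the epoxidase that puts the first oxygen on squalene and a rate-limiting step, stood at 63.0 and 64.1 CPM against 23.9, 29.5, and 29.2 CPM. The WT libraries differed from each other by about 1 CPM, and the Adam17-/- libraries all lay far under them. It fell by 56.7%, the most of the sterol arm (log2 fold change -1.21, standard error 0.106, adjusted p = 0.000249). Lss, which folds the product into lanosterol, fell from 44.2 and 41.1 CPM to 32.5, 33.1, and 34.6 CPM (-0.35, standard error 0.0886, adjusted p = 0.0154).

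Cyp51 (chr5:4080674-4104697), the cytochrome P450 that removes the first methyl group of lanosterol, had 63.5 and 66.9 CPM in the WT libraries and 28.2, 31.97, and 34.6 CPM in the Adam17-/- libraries. The groups were far apart, with a fall of 51.5% (log2 fold change -1.04, standard error 0.102, adjusted p = 0.000357). Tm7sf2, a reductase that acts on the product and whose reaction another enzyme, LBR, can also carry out, overlapped between the groups (13.03 and 9.58 against 10.5, 10.1, and 9.69 CPM). Its log2 fold change was -0.16 (adjusted p = 0.436), and a single WT library set it, with 0.07 without WT replicate 1 (adjusted p = 0.735) and -0.37 without WT replicate 2 (adjusted p = 0.0477). The 3 enzymes that then strip the paired methyl groups all fell. Msmo1, the oxidase, went from 77.5 and 87.1 CPM to 56.0, 55.3, and 54.9 CPM (-0.57, standard error 0.0857, adjusted p = 0.00163). Nsdhl, the dehydrogenase, went from 23.2 and 23.0 CPM to 15.3, 14.7, and 16.2 CPM (-0.58, standard error 0.102, adjusted p = 0.00327). Hsd17b7 (chr1:169949535-169969242), the ketoreductase, fell the most of the 3. It stood at 20.1 and 25.5 CPM against 11.4, 10.1, and 12.5 CPM, a fall of 50.1% (log2 fold change -1.003, standard error 0.139, adjusted p = 0.00120).

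The steps that finish the ring also fell. Ebp, the sterol isomerase, was 33.7 and 34.0 CPM in the WT libraries and 24.3, 23.3, and 26.1 CPM in the Adam17-/- libraries (-0.46, standard error 0.0942, adjusted p = 0.00632). Sc5d, a desaturase, had 48.8 and 60.7 CPM against 43.7, 38.8, and 46.4 CPM, and its highest Adam17-/- value came close to its lowest WT value (-0.35, standard error 0.117, adjusted p = 0.0471). Dhcr7, the reductase that gives cholesterol itself, had 41.7 and 28.4 CPM against 21.7, 26.9, and 24.2 CPM (-0.53, standard error 0.159, adjusted p = 0.0300). For Sc5d and Dhcr7 a single WT library set much of the size. Without WT replicate 2 the log2 fold change of Sc5d was -0.18 (adjusted p = 0.165), and without WT replicate 1 that of Dhcr7 was -0.23 (adjusted p = 0.159).

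WT replicate 1 carried other modest falls of this arm as well, since without it Mvk was at -0.30 (adjusted p = 0.186), Mvd at -0.26 (adjusted p = 0.0633), and Fdft1 at -0.26 (adjusted p = 0.0544). Hmgcs1 was at -0.28 without WT replicate 2 (adjusted p = 0.0151). Leaving out any Adam17-/- library ended the calls of 7 genes, namely Hmgcs1, Mvk, Mvd, Fdft1, Lss, Sc5d, and Dhcr7, with adjusted p of 0.0508 to 0.201 and the same sign. The other 8 genes of the arm that fell kept an adjusted p of 0.05 or less in the alternative fits that could test them (13 for Fdps and 14 for each of the others), and they were Idi1, Fdps, Sqle, Cyp51, Msmo1, Nsdhl, Hsd17b7, and Ebp. In the arm as a whole, 15 of the 18 sterol arm genes fell, against 16.8% of all genes tested, with a median of -0.48.

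Genes that serve the same route but were not among the 32 were read for comparison, and 4 of 9 fell and 0 rose (median -0.34), against 16.8% lower and 14.9% higher over all genes tested. Among those that fell were Por and Cyb5r3, which pass electrons to the oxygenases of the route and to other enzymes of the endoplasmic reticulum, at -0.76 (adjusted p = 0.00401) and -0.73 (adjusted p = 0.000650), and Por was at -0.48 without WT replicate 1.

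Hmgcs1 was also read by transcript, a description chosen after its values were seen. The files list a pair of RefSeq transcripts that share the coding exons and differ in their untranslated ends. NM_145942 carries an additional exon of 59 bases at chr13:119694989-119695047 (GRCm38, plus strand), upstream of the start codon at 119699674, and NM_001291439 lacks it. They also differ in the first exon (50 bases in NM_145942, 68 in NM_001291439) and in the last (1872 and 1694 bases). NM_145942 was estimated at 23.9 and 25.7 CPM in the WT libraries and at 9.0, 8.28, and 5.06 CPM in the Adam17-/- libraries, without overlap. NM_001291439 was at 45.6 and 63.1 CPM against 50.3, 46.3, and 53.6 CPM, with overlap. The share of the gene held by NM_145942 was 34.4% and 28.9% beside WT cells and 15.2%, 15.2%, and 8.62% beside Adam17-/- cells. These are estimates that divide shared reads between transcripts, neither transcript had whole counts in every library, and no test was made. Which of the differing exons set the estimates was not tested either.

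**Figure D4:**
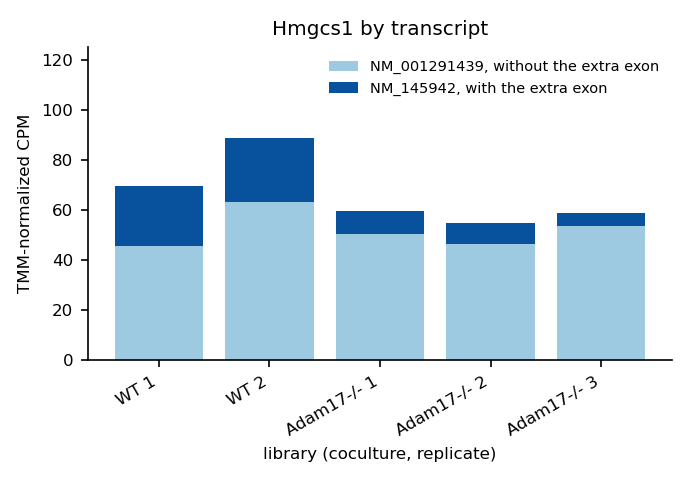
Hmgcs1 in each library, as stacked bars of the estimated TMM-normalized CPM of its transcripts (dark, NM_145942 with the additional exon; light, NM_001291439 without it). The dark part is 23.9 and 25.7 CPM in the WT libraries and at most 9.0 CPM in the Adam17-/- libraries, while the light parts overlap between the groups. The transcripts also differ in the length of their first and last exons.

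Of the 6 regulators, 4 fell, against 16.8% of all genes tested, and among the 4 were both genes that encode the transcription factors. Srebf2 (chr15:82147269-82205379) stood at 278.9 and 226.0 CPM in the WT libraries and at 123.4, 120.9, and 141.1 CPM in the Adam17-/- libraries. It fell by 49.1% (log2 fold change -0.97, standard error 0.109, adjusted p = 0.000550), and its promoter is one of those printed above. Srebf1 (chr11:60199084-60224186) went from 212.3 and 161.7 CPM to 119.4, 120.4, and 126.1 CPM (-0.62, standard error 0.111, adjusted p = 0.00373). Of its transcripts, NM_011480 was at 181.5 and 151.9 CPM against 106.6, 111.9, and 95.9 CPM, while NM_001313979 overlapped between the groups (9.80 to 30.8 against 8.47 to 30.2 CPM).

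Scap, which escorts the SREBPs to the Golgi, fell from 65.9 and 51.3 CPM to 39.7, 41.3, and 40.1 CPM (-0.54, standard error 0.111, adjusted p = 0.00676). Without WT replicate 1, Scap was at -0.35 (adjusted p = 0.00735). Insig1, a retention protein whose own gene is an SREBP target, went from 113.0 and 121.9 CPM to 87.0, 85.0, and 87.2 CPM (-0.44, standard error 0.0796, adjusted p = 0.00366). Insig2, which has the same role but is not controlled in the same way, overlapped at 25.5 and 31.1 CPM against 25.5, 28.2, and 30.8 CPM. Its log2 fold change was -0.01 with a standard error of 0.121 (adjusted p = 0.967), and the difference between the INSIG genes was not tested. Stard4, a carrier of cholesterol between membranes, had 16.6 and 26.5 CPM against 14.1, 17.3, and 14.7 CPM. The value of -0.49 did not pass (standard error 0.184, adjusted p = 0.0680). Stard4 was at -0.79 without WT replicate 1 and at -0.12 without WT replicate 2. Per length of transcript, Srebf2 and Srebf1 were among the most abundant genes of the set, at 52.5 and 40.9 FPKM on average in the WT libraries, where Scap was at 13.4, Insig1 at 42.5, and Insig2 at 10.9 FPKM.

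The proteins that move, cut, and degrade the components of this switch formed a list of their own, and 6 of 15 were lower and 0 higher (16.8% and 14.9% over all genes tested), with a median of -0.21. Sec24d, a coat protein of vesicles that leave the endoplasmic reticulum, fell by 0.54 on the log2 scale (adjusted p = 0.00348). Syvn1, a ubiquitin ligase of the endoplasmic reticulum, was at -0.38 (adjusted p = 0.0493), and Erlin1, a protein of the same membrane, at -0.34 (adjusted p = 0.0164). Of the proteases that release SREBPs, Mbtps1 (site-1 protease) was at -0.30 (adjusted p = 0.0314) and Mbtps2 (site-2 protease) at -0.05 (adjusted p = 0.796). Without WT replicate 1, Mbtps1 was at -0.19 (adjusted p = 0.0608) and Mbtps2 at -0.25 (adjusted p = 0.0476), and without WT replicate 2 Mbtps2 was at 0.18 (adjusted p = 0.142), so the order of the proteases rested on 1 library. Syvn1 was at -0.11 without WT replicate 1 (adjusted p = 0.264) and at -0.61 without WT replicate 2. The calls of Syvn1, Mbtps1, and Erlin1 ended without any Adam17-/- library, and with libraries scaled by their size only, 1 of the 15 genes was lower, near the share over all genes in that fit (1077 of 12576).

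The fatty acid arm held the gene with the largest fall, and 5 of its 8 genes fell (median -0.51), against 16.8% of all genes tested. Acly, which makes cytosolic acetyl-CoA from citrate and so feeds both arms, stood at 315.3 and 374.9 CPM in the WT libraries and at 296.5, 281.2, and 327.1 CPM in the Adam17-/- libraries. The groups overlapped, and the log2 fold change of -0.19 did not pass (standard error 0.102, adjusted p = 0.171). Acly was at -0.32 without WT replicate 1 (adjusted p = 0.0155) and at -0.07 without WT replicate 2 (adjusted p = 0.580). Acaca, acetyl-CoA carboxylase, which makes malonyl-CoA in the committed step, fell from 43.6 and 43.3 CPM to 25.8, 28.9, and 28.3 CPM (-0.65, standard error 0.0917, adjusted p = 0.00127). Fasn (chr11:120805958-120825166), fatty acid synthase, had 137.0 and 104.2 CPM against 41.5, 36.7, and 47.7 CPM. The Adam17-/- libraries all lay far under both WT libraries, and the fall was 65.2% (log2 fold change -1.52, standard error 0.136, adjusted p = 0.000271).

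Of the enzymes that lengthen and desaturate the product, Elovl6, the elongase of palmitate, went from 12.1 and 11.8 CPM to 6.73, 7.63, and 8.47 CPM (-0.65, standard error 0.138, adjusted p = 0.00745). The stearoyl-CoA desaturases, which make oleate, did not pass. Scd2 was at 118.5 and 108.2 CPM against 111.2, 104.3, and 125.9 CPM (0.01, standard error 0.0990, adjusted p = 0.968). Scd1 was the lowest gene of the set per length, at 0.590 FPKM on average in the WT libraries against 19.7 FPKM for Scd2, and it rested on few counts, 85 and 29 in WT replicates 1 and 2 and 36, 43, and 54 in Adam17-/- replicates 1, 2, and 3. Its value of -0.25 had a standard error of 0.380 (adjusted p = 0.649), and a single WT library set its direction, with 0.69 without WT replicate 1 (adjusted p = 0.157) and -0.81 without WT replicate 2 (adjusted p = 0.0299). The counts of both genes were not whole. They are close paralogs, and whether they share reads was not tested. Fads1 and Fads2, neighbors on chromosome 19 that desaturate polyunsaturated fatty acids, both fell. Fads1 went from 159.4 and 147.9 CPM to 119.9, 120.3, and 115.9 CPM (-0.37, standard error 0.0788, adjusted p = 0.00754), at 42.3 FPKM on average in the WT libraries. Fads2 was scarce, with 95 and 50 counts in WT replicates 1 and 2 and 35, 27, and 30 in Adam17-/- replicates 1, 2, and 3, or 4.97 and 2.71 CPM against 1.92, 1.78, and 1.59 CPM. It fell by 54.2% (log2 fold change -1.13, standard error 0.283, adjusted p = 0.0156). Fads2 was at -0.62 once WT replicate 1 was left out (adjusted p = 0.144) and at -1.03 without Adam17-/- replicate 3 (adjusted p = 0.0577). The call of Elovl6 ended on the log2(FPKM + 0.1) scale (limma, adjusted p = 0.0530) and that of Fads1 with the replicate number as a block (adjusted p = 0.0955).

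Of 30 fatty acid genes outside the set, 12 were lower and 3 higher (median -0.15), against 16.8% lower and 14.9% higher over all genes tested, so that the count of higher genes was not above that share. Those lower were led by Aacs, which activates acetoacetate for lipid synthesis (32.6 ± 4.46 against 16.5 ± 1.15 CPM, SD, n = 2 and 3; log2 fold change -0.98, adjusted p = 0.000650), and by Mid1ip1, a protein that promotes acetyl-CoA carboxylase polymers (-0.78, adjusted p = 0.000550). Elovl1 and Hsd17b12, enzymes of fatty acid elongation, were at -0.58 (adjusted p = 0.00377) and -0.51 (adjusted p = 0.00344). The 3 that rose were the genes of the enzymes that complete triglycerides, Dgat2 (3.799 ± 0.474 to 8.001 ± 0.264 CPM, 1.07, adjusted p = 0.00148) and Dgat1 (0.55, adjusted p = 0.00826), and Acacb, the mitochondrial form of acetyl-CoA carboxylase (0.50, adjusted p = 0.0430). The call of Acacb was lost without any library but WT replicate 1.

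For uptake, 9 of 18 tested genes of sterol uptake and transport fell and 4 rose, with a median of -0.29, and the count that rose was near the 14.9% of all genes tested (16.8% were lower). Msr1, a scavenger receptor for modified lipoprotein, was at -0.74 (adjusted p = 0.000763), Lrp1, a broad endocytic receptor, at -0.54 (adjusted p = 0.00538), and Gramd1b, a sterol carrier at membrane contacts, at -0.51 (adjusted p = 0.00399). The 4 that rose were Mylip, a ubiquitin ligase whose gene is a target of LXR, from 33.1 ± 0.758 to 45.4 ± 1.36 CPM (0.46, adjusted p = 0.00476), Gramd1c (1.18, adjusted p = 0.0105), Vldlr (0.76, adjusted p = 0.0242), and Cd36, a fatty acid and lipoprotein receptor (0.88, adjusted p = 0.0477). Cd36 was at 77.6 CPM in Adam17-/- replicate 2, and without that library it was at 0.50 (adjusted p = 0.0894). Its call also ended without WT replicate 2 (adjusted p = 0.0970) and Adam17-/- replicate 3 (adjusted p = 0.0753), and that of Vldlr without WT replicate 1, Adam17-/- replicate 2, or Adam17-/- replicate 3 (adjusted p of 0.0617 to 0.0805).

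Of 9 genes of sterol esters and lipid droplets, 2 were lower and 2 higher (median -0.05), near the shares over all genes tested (16.8% lower and 14.9% higher). Nceh1, which hydrolyzes cholesterol esters, was at -0.40 (adjusted p = 0.00915) and Plin2, a coat protein of lipid droplets, at -0.29 (adjusted p = 0.0196), while Soat2, which esterifies cholesterol, was at 0.47 (adjusted p = 0.0160) and Plin3 at 0.32 (adjusted p = 0.0327). All 4 calls ended without at least 1 of the Adam17-/- libraries.

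**Figure D5:**
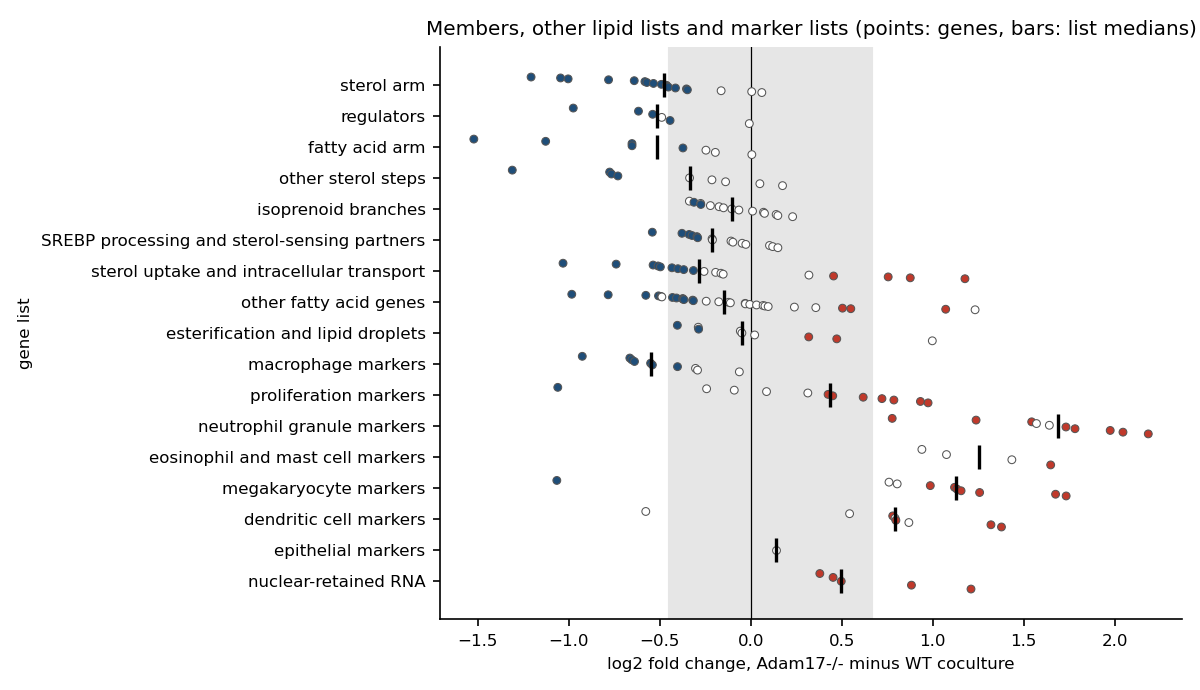
Log2 fold change (Adam17-/- minus WT coculture, edgeR) of each tested gene in the 3 groups of SREBP target genes, the other lipid lists, and the marker lists; filled blue points are lower and filled red points higher at an adjusted p of 0.05 or less, open points pass in neither direction, bars are list medians, and the gray band is the 10th to 90th percentile of all genes (-0.45 to 0.67). The sterol arm, regulators, and fatty acid arm have medians of -0.48, -0.51, and -0.51 and no red point, and the macrophage markers have a median of -0.55.

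Lists of markers of cell types and RNA classes were read in the same libraries, against the 16.8% lower and 14.9% higher over all genes tested. Of 10 macrophage markers, 7 were lower and 0 higher (0 also at an unadjusted p under 0.05), with a median of -0.55, and their summed level was 28310 to 29080 CPM in the WT libraries and 18440 to 20420 CPM in the Adam17-/- libraries. Of 10 neutrophil granule markers, 8 rose (median 1.69, sums of 364.0 to 447.8 against 1236 to 1420 CPM). Of 12 proliferation markers, 7 rose and 1 fell (median 0.44, 293.3 to 297.5 against 354.5 to 371.6 CPM). Of 10 megakaryocyte markers, 7 rose and Pf4, which macrophages also express, fell (median 1.13). Their sums, set by Pf4, were 2059 to 2157 against 1084 to 1200 CPM. Of 8 tested dendritic cell markers, 4 rose (median 0.80), and the sums over all 10 listed were 34.5 to 51.2 against 68.3 to 78.1 CPM. Of 4 tested eosinophil and mast cell markers 1 rose, Siglecf (4.61 and 3.14 against 11.2, 11.97, and 13.3 CPM). It made up most of the sums over all 10 listed, which were 5.79 to 8.11 against 14.8 to 21.6 CPM. Ms4a2 had 0 counts in both WT libraries and in Adam17-/- replicate 1, and 2 and 1 counts in Adam17-/- replicates 2 and 3. All 5 tested nuclear-retained RNAs rose (median 0.50, 7469 to 7764 against 11880 to 13380 CPM). Of 10 epithelial markers, 9 were under the filter, with Epcam at 0 in 4 of the 5 libraries, and Cdh1 was tested and did not pass (11.9 and 10.6 against 13.2, 11.4, and 12.5 CPM, log2 fold change 0.14, adjusted p = 0.422). Their sums, set by Cdh1, were 11.6 to 13.3 against 11.97 to 14.4 CPM. The part of these markers in the change of the SREBP targets was not tested.

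The scaling of the libraries bears on the size of the fall. With libraries scaled by their size only, the median of all genes moved from 0.01 to 0.16, and 1077 genes were lower and 3019 higher (73.7% of the calls higher, against 46.9% with TMM factors, from 2114 lower and 1869 higher). The median of the 32 genes was then -0.34, and 8 of the 18 sterol arm genes were lower in place of 15. The 24 genes that fell kept their sign in each alternative fit that could test them, which was 13 of the 14 fits for 8 genes (Hmgcs1, Mvk, Mvd, Fdps, Fdft1, Lss, Srebf1, and Scap) that the fit of whole-count transcripts could not test. In the fits that could test them, 14 kept an adjusted p of 0.05 or less, comprising the 8 sterol arm genes named above, the 4 regulators, Fasn, and Acaca. The values of Pmvk, Acat2, Insig2, and Scd2, near zero, changed sign when single libraries were left out, and none of these 4 genes passed in any alternative fit that could test it. With 2 samples against 3, an exact permutation test on any 1 gene has 0.1 as its smallest p, and the adjusted p-values borrow their estimate of spread from the whole table through edgeR.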

How the data were processed

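RNA-Seq libraries of 5 BMDM samples, 2 from WT and 3 from Adam17-/- 4T1 coculture, were grouped by their labels. Per the study's methods, the authors sequenced paired-end reads of 150 bp on a BGISEQ-500 and aligned them to GRCm38 with HISAT. The submitters' processing notes name Bowtie2, RSEM, Bowtie, DESeq2, and mm10, and versions are not given in the sources used here. For each transcript the authors deposited an expected count, which is not normalized and divides shared reads among transcripts, and an FPKM value, scaled by the authors for the length of the transcript and the size of the library. Transcripts under an FPKM of 0.01 are not listed and were taken as 0. Whether counting used strand is not given, so reads on overlapping antisense genes cannot be told apart. Of the listed transcripts, 48.3% to 49.3% per library had an expected count that was not whole (tolerance 0.005), as did the gene sums of 4 members (tolerance 0.05), Fdft1, Acat2, Scd1, and Scd2.

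Expected counts were summed per Entrez gene, and the rounded sums went into edgeR 4.0.16 (R 4.3.3; TMM factors, filterByExpr, and the quasi-likelihood fit and test, with no covariates). A gene was called at an adjusted p (Benjamini-Hochberg) of 0.05 or less. Standard errors are the absolute log2 fold change divided by the square root of F. The 37 to 40 genes per library without a RefSeq symbol stayed in the fit. Log2 CPM per library used a prior count of 2. Totals of 14658694 to 20788373 counts set the precision, and the floor of 3 counts covers counting error only. The scripts were tested on simulated data. Symbols, gene spans, and promoters came from RefSeq and exons from GENCODE M21, all of GRCm38. The members and all lists were chosen with earlier results of these data known. All members are named, with up to 4 called genes in each direction from each other lipid list, and Mbtps1 and Mbtps2. A few genes that this rule names are counted in their lists, and their own values are not reported here. Gene lists were described by counts and medians, without a test. Alternatives were DESeq2 1.42.0, other scalings, limma 3.58.1 on log2(FPKM + 0.1) and log2(FPKM + 1), other filters and thresholds, whole-count transcripts only, the replicate number as a block, and each replicate left out. Python 3.11.15, pandas 2.3.3, and matplotlib 3.10.9 were also used.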

Additional observations from a re-analysis of the deposited data

How the results depend on the processing

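Under the alternatives no called result turned its direction, and of 434 values of single members, 367 kept their side of the threshold, 62 lost it, and 5 gained it. DESeq2, no filter on low counts, and a filter of 10 counts in every library moved no count of called members by over 1.5 times. The fall of the 32 genes, 24 lower, came to 15 lower when only transcripts with whole counts were used, where 18 of the genes could be tested, and to 5 with a log2 limit of 1. The sterol arm, 15 lower, had 8 with library size only, in both FPKM fits, with whole-count transcripts (10 tested), and at an adjusted p of 0.01, 9 with the replicate block, and 3 with a log2 limit of 1. The regulators, 4 lower, had 2 with whole-count transcripts (3 tested) and 0 with a log2 limit of 1, and the fatty acid arm, 5 lower, had 2 with that limit. The medians of the 32 genes, the sterol arm, the regulators, and the fatty acid arm were -0.34, -0.33, -0.37, and -0.37 with library size only, -0.33, -0.33, -0.34, and -0.35 on the log2(FPKM + 0.1) scale, -0.30, -0.30, -0.32, and -0.27 on the log2(FPKM + 1) scale, and -0.58, -0.54, -0.45, and -0.61 with whole-count transcripts. With upper quartile factors the first 3 were -0.43, -0.42, and -0.46. The median of all genes moved from 0.01 to 0.16 with library size only, to 0.15 with log2(FPKM + 0.1), to 0.11 with log2(FPKM + 1), and to 0.07 with upper quartile factors, and the share of higher calls from 46.9% to 73.7%, 74.2%, 73.9%, and 57.9%.

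Among the other lipid lists, the lower isoprenoid genes, 2, came to 1 with DESeq2 and with the filter of 10 counts and to 0 with upper quartile factors, library size only, both FPKM fits, the block, and whole-count transcripts (10 of 15 tested), and the higher ones, 0, to 1 with library size only and both FPKM fits. The lower partners of SREBP processing, 6, came to 3 with upper quartile factors, to 2 with whole-count transcripts (8 of 15 tested), and to 1 with library size only, both FPKM fits, and the block. Uptake and transport, 9 lower and 4 higher, had 5 lower with the block, and 4 lower and 2 higher with whole-count transcripts (10 of 18 tested). The other fatty acid genes, 12 lower, had 6 with library size only, both FPKM fits, the block, and whole-count transcripts (22 of 30 tested). Esterification, 2 lower and 2 higher, had 0 lower with library size only, both FPKM fits, and the block, and 1 higher with the block and 0 higher with whole-count transcripts (3 of 9 tested).

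With each replicate left out in turn, 16 to 25 of the 32 genes were lower (median -0.57 to -0.45), 8 to 15 of the sterol arm (-0.54 to -0.43), 4 to 5 regulators (-0.55 to -0.46), and 4 to 6 of the fatty acid arm (-0.67 to -0.45). Other sterol steps had 4 to 5 lower, isoprenoid genes 0 to 4 lower and 0 to 1 higher, partners of SREBP processing 1 to 8 lower and 0 to 1 higher, uptake 5 to 10 lower and 2 to 4 higher, the other fatty acid genes 6 to 14 lower and 2 to 6 higher, and esterification 0 to 3 lower and 0 to 3 higher. The number of calls over all genes moved as well. Without Adam17-/- replicates 1, 2, and 3 in turn, 926 of 12479, 1168 of 12451, and 1237 of 12408 genes were lower. Those higher were 1089, 1240, and 1208, while all libraries together gave 2114 lower and 1869 higher of 12576. Without a WT replicate, the lone WT library is assumed to vary like the others. The cause of these shifts was not tested.

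Whether the replicate numbers pair the samples is not given in the labels. The deviations of same-numbered libraries from their group means correlated at -0.12 for replicate 1 and -0.05 for replicate 2. With 2 WT libraries, their deviations are mirror images of each other, so these values cannot decide whether the samples were paired. With the number as a block, 1126 genes were lower and 1216 higher, against 2114 and 1869. At these depths the scarce members, Scd1 and Fads2, rest on under 100 counts per library.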
